A study of Mus musculus with 16 samples.

Results

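The Trappc9 and Peg13 locus is an imprinted stretch of mouse chromosome 15, described here by 4 of the 34614 protein-coding and lncRNA genes annotated by RefSeq: Trappc9, Peg13, Kcnk9 and Chrac1. The genes were taken by name, and listed CpG positions and their reads were summed over each whole gene body and in 20 kb bins across Trappc9. In mm10 coordinates, Kcnk9 spanned 72501873 to 72548614 and Trappc9 72589620 to 73061238. The lncRNA gene Peg13 lay wholly inside Trappc9, at 72805602 to 72810324, and made up 1.00% of its length. Chrac1 spanned 73090412 to 73094075. The gap from Kcnk9 to Trappc9 was 41005 bp, and the gap from Trappc9 to Chrac1 was 29173 bp. Because Peg13 positions also lie in Trappc9, they were counted apart from the remaining body of Trappc9 in the comparisons between days. The comparisons with wild-type libraries, the 20 kb bins and values given for Trappc9 as a whole include Peg13. Exons and strands of these genes were not used here.

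In imprinted clusters a differentially methylated region, set in one parental germline, leads to expression from 1 parental copy of the genes around it, and DNMT1 copies such methylation to the new strand after replication. Peg13 is expressed from the paternal copy, and its promoter region is methylated on the maternal copy. In mouse brain the neighbouring genes Kcnk9, Trappc9 and Chrac1 are expressed mainly from the maternal copy. The deposited tables do not tell the parental copies apart.

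The study tracked the action of DNMT1 in E14TG2a cells, a line of mouse embryonic stem cells, with a DNMT1 variant that can transfer an azide-bearing group from the cofactor analog Ado-6-azide to DNA. All groups received 1 mM Ado-6-azide by electroporation, genomic DNA was taken 3 h later, and fragments carrying the azide were enriched and sequenced from the labelled site. A listed position is a CpG with at least 1 read, and its coverage is the number of reads. Among 16 libraries, the heterozygous Dnmt1 N1580A knock-in group (Het) had 3 and the group with wild-type Dnmt1 (WT) had 3. Knock-in cells were also sampled on days 0, 2, 4 and 8 after withdrawal of the kinase inhibitors CHIR99021 and PD0325901, with 2 libraries each, where day 0 is the naive state. A second wild-type Dnmt1 group, called the wild-type control, had 2 libraries. Leukemia inhibitory factor was present in all media. Whether the Het libraries came from naive or primed cells, what sets the WT and wild-type control groups apart, and how many clones the knock-in line represents are not in the labels.

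The 11 libraries of Het and the days held 4202118 to 25175264 reads each, and the 5 libraries with wild-type Dnmt1 held 1640 to 22890. Day 0 libraries stood apart with 390158 and 407127 listed positions, against 1267200 to 3065096 on later days and 1641850 to 3423423 in Het. Levels are therefore given as counts of positions per 1000000 positions listed in the same library (CPM), and for reads as CPM of the library's reads. The labels do not tell whether replicates came from separate cultures, so the spread among these libraries may be only technical. The p-values rest on that spread, but the edgeR fits by positions put it close to counting error. Their fitted common biological coefficient of variation was 0.00988, against 0.488 by reads. Reads carry no molecular identifiers, so intervals and floors cover counting error only.

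The first question was how much signal in the locus depended on the knock-in. In Trappc9, Het libraries listed 618, 1213 and 941 positions with 7527, 9709 and 8207 reads, against 2, 0 and 6 positions with 2, 0 and 22 reads in WT libraries. The groups did not overlap. Neither did the whole libraries, with 1641850 to 3423423 listed positions in Het and 960 to 5625 in WT. How many genes separated the groups in this way was not counted. On the scale of log10(count + 1), positions were 323-fold and reads 2056-fold higher in Het (two-sided exact permutation test, p = 0.1 for each, the smallest value that 3 against 3 libraries allow). The 8 day libraries listed 179 to 1058 positions in Trappc9, against 4 and 1 in the wild-type control libraries. That difference was 164-fold in positions and 948-fold in reads (exact permutation p = 0.0222 in both cases, which 8 against 2 libraries cannot go below). Whole libraries listed 390158 to 3065096 positions on the days and 9150 and 3501 in the wild-type control.

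Wild-type libraries held a few positions at the locus. Of the 13 Trappc9 positions listed over the 5 wild-type libraries, 10 were also listed in a Het or day library. That overlap was not counted over all positions of the wild-type libraries. These libraries listed 23097 positions in all, and Trappc9 had 563 CPM (exact 95% binomial interval 299.7 to 962) in them, beside 376, 354 and 356 CPM in the Het libraries. The Het values lay inside that interval, and a difference in the share of Trappc9 between genotypes was not detectable at this wild-type depth. Peg13 had 1 position and Kcnk9 1 position, both in WT replicate 3, and Chrac1 had 0 in any wild-type library.

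Within Het, label density differed between the genes. In CPM per kb of gene, Het libraries averaged 2.13 ± 0.665 in Peg13, 0.755 ± 0.0236 in Trappc9 outside Peg13, 0.472 ± 0.0227 in Kcnk9 and 0.418 ± 0.155 in Chrac1 (SD, n = 3). On day 8 the same density was 2.13 ± 0.0187 in Peg13, 0.722 ± 0.00574 in Trappc9 outside Peg13, 0.679 ± 0.0783 in Chrac1 and 0.448 ± 0.0410 in Kcnk9 (SD, n = 2). Peg13 stood first in Het and on every day. Kcnk9 and Chrac1 in Het, and Chrac1 and the rest of Trappc9 on day 8, differed by less than their spread. These densities are per base, and the number of CpGs available in each gene was not used here.

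Trappc9 encodes a subunit of the TRAPP complexes, which tether transport vesicles and activate Rab GTPases, and it also takes part in NF-kB signalling. Outside Peg13, its body listed 163 and 173 positions on day 0, 491 and 518 on day 2, 685 and 894 on day 4, and 1027 and 882 on day 8. As a share of all positions in each library this was 418 and 425 CPM on day 0, 387 and 396 on day 2, 327 and 347 on day 4, and 335 and 339 on day 8. The raw counts were thus higher on later days than on day 0, while the share was lower. Het libraries had 365, 348 and 344 CPM, which lay between the lowest day 4 and the highest day 2 library.

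The share of Trappc9 outside Peg13 fell by 0.39 ± 0.09 on the log2 scale on day 8 against day 0 (edgeR quasi-likelihood test on distinct positions, adjusted p = 0.00148). On day 4 it fell by 0.40 ± 0.09 against day 0 (adjusted p = 0.00139), and on day 2 the log2 change was -0.14 ± 0.09 (adjusted p = 0.541). Among the 20416 genes tested, 2.8% were called lower on day 8, 2.62% on day 4 and 0.7% on day 2. Without day 0 replicate 1 or 2 the day 8 change was -0.37 and -0.33 and was no longer called (edgeR adjusted p = 0.0947 and 0.206), and the day 4 change was -0.38 and -0.33 (adjusted p = 0.0912 and 0.201). These contrasts share the day 0 libraries. Relative to day 2, the share fell by 0.25 ± 0.06 on day 8 (edgeR adjusted p = 0.0290), where 0.103% of genes were called lower. That call was lost without either day 2 library, either day 4 library or day 8 replicate 1 (log2 change -0.26 to -0.22, edgeR adjusted p = 0.0994 to 0.434). It was also lost with library totals (edgeR adjusted p = 0.0919), with positions of at least 2 reads (0.0733), after thinning to equal reads (0.112) and with DESeq2 (adjusted p = 0.9997). By reads the change against day 2 was -0.39 and did not pass with edgeR (adjusted p = 0.999995), which called 0% of genes lower, while DESeq2 called it (adjusted p = 0.000496) among 0.337% of the 3859 genes to which it gave an adjusted p.

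Reads gave the same direction. Trappc9 outside Peg13 had 345 and 342 CPM by reads on day 8 and 468 and 433 on day 0. The log2 change of -0.47 ± 0.09 passed the test (edgeR adjusted p = 0.0350). The change on day 4 was -0.44 ± 0.09 (edgeR adjusted p = 0.0402), and on day 2 it was -0.07 ± 0.09 (adjusted p = 0.687). By reads, 0.724% of 30250 genes were called lower on day 8, 0.846% on day 4 and 0.182% on day 2. Without day 0 replicate 1 or 2 the calls by reads were kept. The log2 change was then -0.41 and -0.52 on day 8 and -0.38 and -0.49 on day 4. Leaving out any 1 library of days 2, 4 or 8 removed both calls. There the log2 change was -0.47 to -0.46 on day 8 and -0.47 to -0.41 on day 4. The number of genes called in all moved widely between these fits. Scaling by library totals also ended the day 4 call (log2 change -0.36, edgeR adjusted p = 0.0564). The median log2 change of all genes on day 8 was 0.18 by reads and 0.03 by positions. Reads per position in Trappc9 outside Peg13 were 4.15 ± 0.106 on day 8 and 12.1 ± 0.0910 on day 0 (SD, n = 2 each). Over all listed positions this number was 4.11 and 4.05 on day 8 and 10.8 and 11.98 on day 0.

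**Figure D1:**
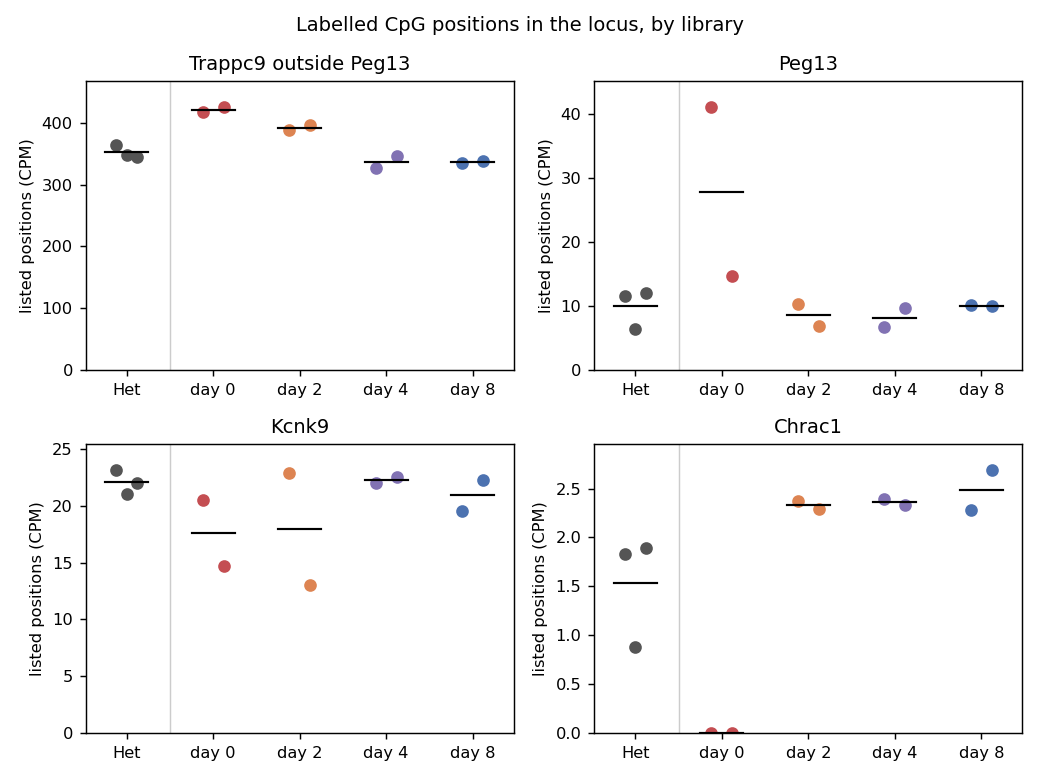
Listed positions in CPM in each library (y axis, separate scale per gene) for Trappc9 outside Peg13, Peg13, Kcnk9 and Chrac1 in Het and on days 0 to 8 (x axis); points are libraries and bars group means. Both day 0 libraries lie above all others in Trappc9 outside Peg13 and in Peg13, where they differ widely from each other (41.0 and 14.7), and both are at 0 in Chrac1.

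Peg13 is a long non-coding RNA gene in the body of Trappc9. It listed 16 and 6 positions on day 0, 13 and 9 on day 2, 14 and 25 on day 4, and 31 and 26 on day 8. The share on day 0 was 41.0 and 14.7 CPM, followed by 10.3 and 6.88 on day 2, 6.69 and 9.70 on day 4 and 10.1 and 9.99 on day 8. Het libraries had 19, 22 and 32 positions, or 11.6, 6.43 and 12.1 CPM. Both day 0 libraries were above the other 9 libraries, and day 0 replicate 1 was far above replicate 2. How many of all genes order their libraries in such a way was not counted, here or for the other genes.

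The share of Peg13 fell on each later day against day 0 by distinct positions. The log2 change was -1.72 ± 0.44 on day 2 (edgeR adjusted p = 0.0187), -1.80 ± 0.41 on day 4 (adjusted p = 0.00146) and -1.52 ± 0.39 on day 8 (adjusted p = 0.00627). Each of these changes rests on 22 positions over the 2 day 0 libraries, and on replicate 1 in particular. Without day 0 replicate 1 the changes were -0.78, -0.86 and -0.58 on days 2, 4 and 8, and none was called (edgeR adjusted p = 0.712, 0.598 and 0.740). Without day 2 replicate 2 the day 2 change was -1.41 and was not called (edgeR adjusted p = 0.201). With every day library thinned to 4202118 reads, the day 8 change was -1.46 and was called (edgeR adjusted p = 0.0162), as were 2.52% of genes in that direction; the part played by the low number of positions on day 0 was not tested otherwise. Between day 8 and day 2 the log2 change was 0.20 ± 0.35 (edgeR adjusted p = 0.940).

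By reads, Peg13 was called in none of these contrasts with edgeR. It had 128 and 117 reads on day 8, or 10.2 and 11.1 CPM, and 167 and 53 on day 0, or 39.7 and 10.9 CPM. The day 8 and day 0 libraries overlapped, and the log2 change was -1.32 ± 0.74 (edgeR adjusted p = 0.330). Without day 0 replicate 1 it was -0.10 (edgeR adjusted p = 0.920). Without day 0 replicate 2, Peg13 was called lower on days 2, 4 and 8, with log2 changes of -2.33, -2.61 and -1.97 (edgeR adjusted p = 0.00467, 0.00196 and 0.0113). That fit called 6.49%, 7.03% and 6.96% of all genes lower on days 2, 4 and 8. DESeq2 called Peg13 on day 4 with all libraries (adjusted p = 0.0304), among 5.97% of genes called lower. The single position with most reads in Peg13 held 15 and 12 reads on day 8 and 31 and 19 on day 0.

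Kcnk9 encodes an acid-sensitive two-pore potassium channel that sets the resting potential of neurons. It listed 8 and 6 positions on day 0, 29 and 17 on day 2, 46 and 58 on day 4, and 60 and 58 on day 8, and 38, 72 and 58 in Het. In CPM the share averaged 17.6 ± 4.08 on day 0 and 17.9 ± 6.99 on day 2, then 22.2 ± 0.377 on day 4 and 20.9 ± 1.91 on day 8 (SD, n = 2 each). The libraries of days 2 and 8 overlapped with those of day 0, and both day 4 libraries lay above them. Kcnk9 did not pass on day 8 against day 0 by positions (log2 change 0.18 ± 0.39, edgeR adjusted p = 0.869) or by reads (-0.12 ± 0.42, adjusted p = 0.912). Without day 0 replicate 1 or 2 the change by positions was 0.46 and 0.0041 (edgeR adjusted p = 0.769 and 0.997). Day 0 rests on 14 positions in Kcnk9, which limits what could be seen.

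Chrac1 encodes a histone-fold subunit of the chromatin accessibility complex, a nucleosome remodeller. In its 3.66 kb it listed 0 positions in both day 0 libraries, 3 and 3 on day 2, 5 and 6 on day 4, 7 and 7 on day 8, and 3, 3 and 5 in Het. The share on day 8 was 2.28 and 2.69 CPM. A count of 0 over the day 0 libraries allows up to 3 positions, or 3.76 CPM, which is above the level of every later day, so no fold is given. By positions Chrac1 was below the filter on low counts, and by reads, with 31 and 23 on day 8 and 0 on day 0, it did not pass (edgeR adjusted p = 0.0873). With all libraries, 1.8% of genes were called higher by reads on day 8 with edgeR. Chrac1 was called higher without day 0 replicate 1 or 2 (edgeR adjusted p = 0.0355 and 0.0433), where 17.3% and 16.8% of genes were called higher, and by DESeq2 (adjusted p = 0.0104), which called 12% higher.

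A trend per day, which uses all 8 day libraries with day as a number, was called in none of the genes. By distinct positions, where 0.495% of genes had a called trend in either direction, the log2 change per day was -0.04 ± 0.01 in Trappc9 outside Peg13 (edgeR adjusted p = 0.0834), -0.08 ± 0.05 in Peg13 (adjusted p = 0.629) and 0.02 ± 0.03 in Kcnk9 (adjusted p = 0.921). In Trappc9 as a whole it was -0.05 ± 0.01 (edgeR adjusted p = 0.0521). Without day 4 replicate 2 that trend was -0.04 and passed (edgeR adjusted p = 0.0381), as did 0.916% of all genes.

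The ratio of label density in Peg13 to that in the rest of Trappc9 needs no scaling between libraries. It was 9.70 and 3.43 on day 0, 2.62 and 1.72 on day 2, 2.02 and 2.76 on day 4, and 2.98 and 2.91 on day 8. In Het it was 3.14, 1.83 and 3.48. Peg13 was denser than its surroundings in all 11 libraries by positions, and in 10 of 11 by reads, where day 4 replicate 1 had a ratio of 0.887. Its log2 value did not correlate detectably with the day. Pearson r was -0.342 (exact permutation p = 0.427) and Spearman rho -0.244 (exact permutation p = 0.586) over the 8 day libraries, and 1 relation was tested. Without the day 8 libraries r was -0.650 (exact p = 0.178). Without day 0 replicate 1 r was 0.163 (exact p = 0.741), so the sign of r rests on that library.

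Over the 11 Het and day libraries, 98 different positions were ever listed in Peg13 and 3742 in the rest of Trappc9, or 20.7 and 8.01 per kb. The share of these that a library listed was, for Peg13, 31.6% and 26.5% on day 8 and 16.3% and 6.12% on day 0, with exact 95% binomial intervals of 22.6% to 41.8%, 18.1% to 36.4%, 9.63% to 25.2% and 2.28% to 12.9%. In between, the Peg13 share was 13.3% and 9.18% on day 2 and 14.3% and 25.5% on day 4, so that day 0 replicate 1, the library with the fewest positions, lay above 3 of these 4 larger libraries. For the rest of Trappc9 the share was 27.4% and 23.6% on day 8 and 4.36% and 4.62% on day 0. Of all 11843512 positions ever listed, 25.9% and 22.0% were listed on day 8 and 3.29% and 3.44% on day 0. Day 0 replicate 1 was the 1 library whose Peg13 interval lay wholly above the share of the rest of Trappc9.

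**Figure D2:**
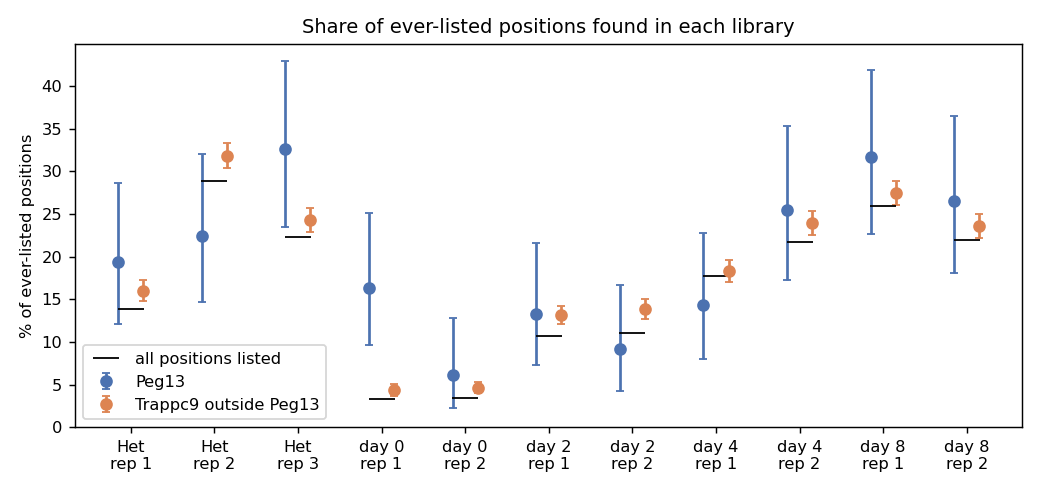
Percentage of ever-listed positions found in each library (y axis) for Peg13 and for Trappc9 outside Peg13, with exact 95% binomial intervals, by library (x axis); black dashes mark all positions listed. Day 0 replicate 1 listed 16.3% of the Peg13 positions and 4.36% of those in the rest of Trappc9, and in the other 10 libraries the Peg13 interval contains the value for the rest of Trappc9.

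Single positions recurred little between libraries. A position of Peg13 was listed in 2.17 of the 11 libraries on average, against 2.01 in the rest of Trappc9 and 1.81 over all listed positions. The values were 1.85 in Kcnk9 and 1.91 in Chrac1. The most recurrent position of Peg13, at 72807940, was listed in 7 libraries, which included 1 of the day 0 libraries and both day 8 libraries. The next, at 72807096, was listed in 6. Replicates shared 5 Peg13 positions on day 8, out of 31 and 26, and 1 on day 0, out of 16 and 6.

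Where in Trappc9 the change lay was asked with 25 bins of 20 kb. All were tested in a fit over 81603 bins of the genome. Of the 25, 23 lay wholly in the gene, and the first and last also covered sequence outside it. The bin that holds Peg13, 72800001 to 72820000, was the densest in the gene and fell on day 8. It listed 74 and 67 positions on day 8, of which 31 and 26 lay in Peg13. On day 0 it listed 32 and 11, of which 16 and 6 lay in Peg13, so its change is not separate from that of Peg13. The bin averaged 25.2 TMM-scaled CPM on day 8 and 53.3 on day 0 (log2 change -1.06 ± 0.27, edgeR adjusted p = 0.0124). It was the 1 bin called of 25, where 1.21% of all bins were called lower. It was not called without day 0 replicate 1 or without day 8 replicate 1. On a grid shifted by 10 kb no Trappc9 bin was called, and the lowest edgeR adjusted p among them was 0.0700. By reads the bin with Peg13 had an edgeR adjusted p of 0.228. The lowest of a Trappc9 bin by reads was 0.0987, at 72860001 to 72880000. By reads, no bin of the genome was called.

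Of the other bins, 16 had a negative and 8 a positive log2 change, and the median over all 25 was -0.28. Both day 8 libraries lay below both day 0 libraries in 10 bins and above them in 3, that is 10 and 3 of 25 where 23.3% and 25.9% of all tested bins did so. The 3 bins above were the 3 at the low-coordinate end of Trappc9, towards Kcnk9, where the first reaches outside the gene. They include the 2 sparsest bins. They listed 29 and 34, 22 and 20, and 35 and 26 positions on day 8, against 1 and 2, 2 and 1, and 1 and 2 on day 0. Their log2 changes were 1.60, 1.02 and 1.55, and none passed the test (edgeR adjusted p = 0.249, 0.571 and 0.271). The second densest bin, 72900001 to 72920000, averaged 19.0 CPM on day 8 and 25.1 on day 0, and did not pass (log2 change -0.34 ± 0.35, edgeR adjusted p = 0.713).

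**Figure D3:**
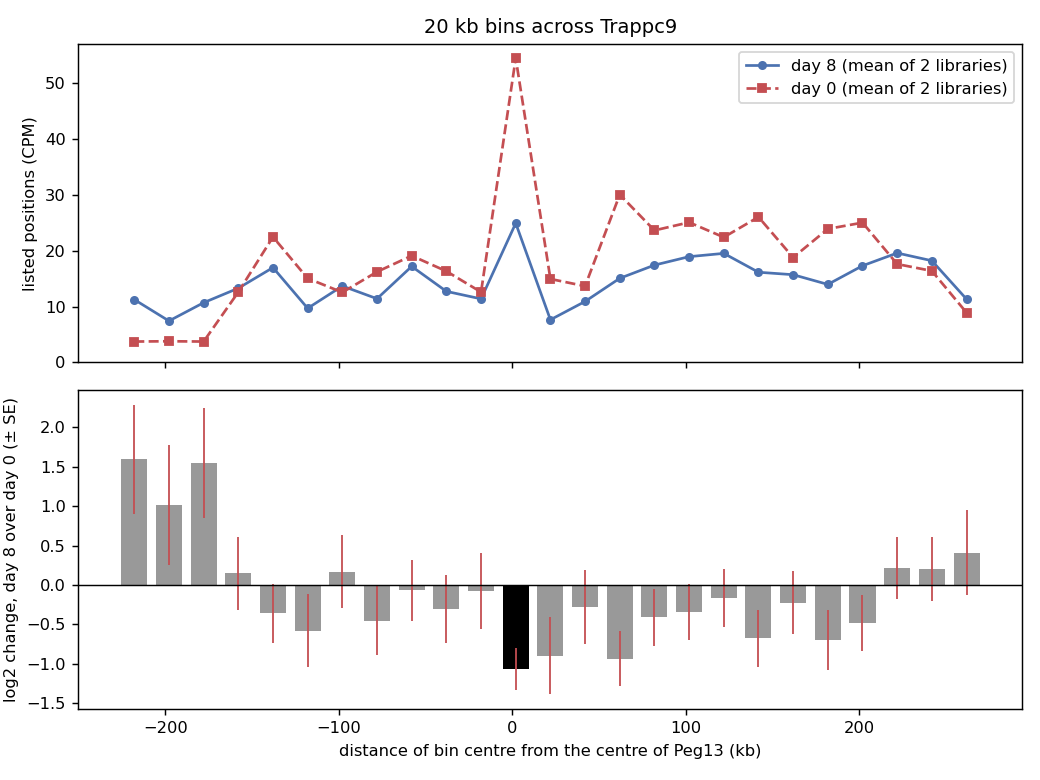
Upper panel, listed positions in CPM in 20 kb bins across Trappc9 on day 8 and day 0 (means of 2 libraries); lower panel, log2 change with its standard error; the x axis is the distance in kb from the centre of Peg13. The bin holding Peg13 is the highest on both days and is the 1 bin called (black, log2 change -1.06), and the 3 bins farthest to the left have positive changes that did not pass.

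Inside Peg13 the label was uneven. In windows of 1 kb, the sum of listed positions over the 11 libraries was 15, 30, 30 and 54 in successive windows, and 84 in the last 723 bp at the high-coordinate end. The next window, just outside the annotated gene, had 46, while the 20 windows on the low-coordinate side had 3 to 28 (median 16.5) and the 20 windows on the high-coordinate side 0 to 46 (median 11). The last 1723 bp of Peg13, a stretch chosen after the profile was seen, make up 36.5% of the gene and held 138 of its 213 listings, or 64.8%. That percentage was 62.5% and 66.7% on day 0, 69.2% and 77.8% on day 2, 42.9% and 64.0% on day 4, 58.1% and 57.7% on day 8, and 68.2% to 78.9% in Het. Day 4 replicate 1, with 6 of 14 positions there, was the lowest of the 11 libraries. In the window just outside the gene, day 8 libraries listed 3 and 5 positions and day 0 libraries 7 and 2, although day 8 libraries listed far more positions in all. No test was run on the windows.

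**Figure D4:**
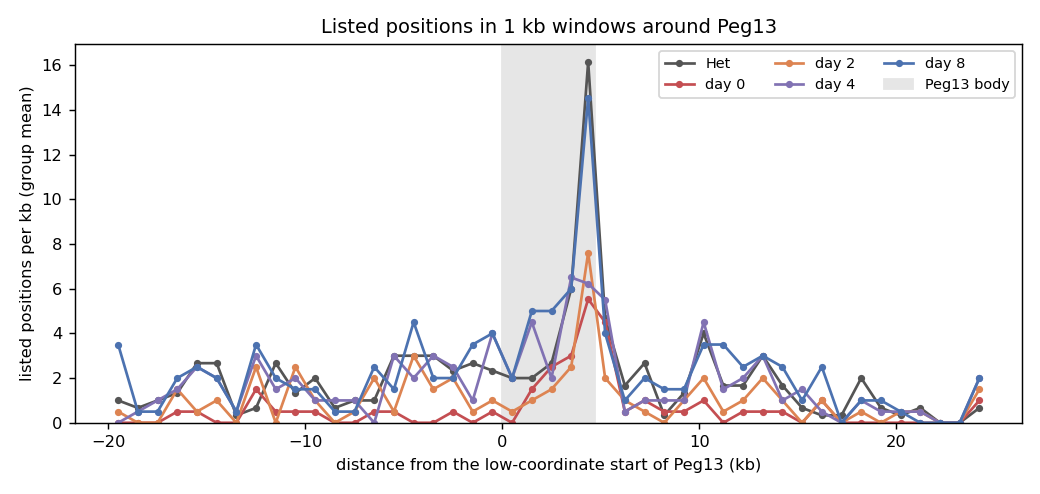
Listed positions per kb (y axis, group mean per library) in 1 kb windows around Peg13, by distance from its low-coordinate start in kb (x axis), for Het and days 0, 2, 4 and 8; the grey band is the Peg13 body. The highest window is at the high-coordinate end of Peg13 in Het (16.1 per kb), on day 0 (5.53), day 2 (7.61) and day 8 (14.5), and on day 4 it is the one before (6.50, against 6.22 at the end); raw densities also follow the number of positions each library listed.

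The genes most like Trappc9 outside Peg13 across the 11 libraries were sought among the 65 genes on other chromosomes with at least as many positions. Among the highest Pearson correlations of log2 CPM of positions were 0.944 with Sox5, which encodes an SRY-related transcription factor, and 0.927 with Cacna1c, which encodes a voltage-gated calcium channel subunit. For Peg13, among 12997 genes, the highest values were 0.974 with Cab39l, 0.969 with Gm46828 and 0.939 with Gm27188. These are the highest of many correlations over libraries that share their depth and day, and serve as a description.

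Genes related to the locus by place, type or function were counted in the same fits for day 8 against day 0. Over all genes, 2.53% were called in either direction by reads and 5.03% by positions. Of 9 neighbours on chromosome 15, which include the Argonaute gene Ago2 and the focal adhesion kinase gene Ptk2, 0 passed by reads or by positions. A count of 0 among 9 is near those shares. The edgeR adjusted p was 0.0644 by reads and 0.0724 by positions for Ago2, whose log2 change was 0.62 and 0.63. Among imprinted transcripts within a host gene and their hosts, 1 of 8 tested was called lower by reads, against 0.724% of all genes, and 1 of 6 by positions, against 2.8%. It was Igf2r in both. Igf2r, the receptor for mannose 6-phosphate and IGF2, had 223 and 183 positions on day 8 and 48 and 45 on day 0, and fell by 0.77 ± 0.17 on the log2 scale (edgeR adjusted p = 0.00116). Airn, a non-coding RNA gene counted in this list, overlaps Igf2r only in part. Its log2 change was -0.16 ± 0.19 by positions (edgeR adjusted p = 0.719).

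Of 14 other TRAPP subunit genes, 1 of 14 tested was higher by reads, against the background of 1.8%, and 0 of 10 by positions. It was Trappc2l, with 16 and 19 positions on day 8 and 0 on day 0, at least 1.64-fold higher if a floor of 3 positions is taken for day 0 as a whole (edgeR adjusted p = 0.0337 by reads and 0.0751 by positions). Of the other two-pore potassium channel genes, 0 of 13 tested passed by reads and 1 of 11 by positions, where 2.23% of genes were called higher. That gene, Kcnk5, listed 115 and 85 positions on day 8 and 7 and 2 on day 0 (log2 change 1.57 ± 0.40, edgeR adjusted p = 0.00687), and did not pass by reads. Of the 3 genes for partners of Chrac1 in the chromatin accessibility complex, 0 passed among 3 tested by reads and 2 by positions. Over all genes, the shares called in either direction were 2.53% and 5.03%. The median log2 change by positions was 0.12 for neighbours, 0.15 for imprinted hosts and nested transcripts, 0.39 for TRAPP subunits, -0.12 for potassium channels and 0.35 for the complex, against 0.03 over all genes.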

How the data were processed

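Per the labels' protocols, 900 ng of sonicated genomic DNA per library was enriched for azide-bearing fragments, amplified and read on an Ion Proton. The submitters' processing notes name cutadapt 4.4, BWA 0.7.17-r1188, SAMtools 1.12 and build mm10. Their settings and any treatment of duplicates are not stated there. Per the file headers, the authors deposited 1 table per library of chromosome, position and coverage, where coverage is a raw count of reads, whole and at least 1. All 49718 listed positions inside RefSeq promoter windows fell on the C of a plus-strand CpG. Unlisted positions were taken as 0.

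Reads and distinct positions were summed over 21887 protein-coding and 12727 lncRNA gene bodies (RefSeq, GRCm38.p6) and 20 kb bins, and a read in overlapping genes counted for each, without regard to strand. Fits used edgeR 4.0.16 in R 4.3.3 (filterByExpr, TMM, glmQLFit and glmQLFTest over the 8 day libraries, Benjamini-Hochberg adjustment over all features at 0.05). The standard error of a log2 change is its size over the square root of F. The fitted common biological coefficient of variation, 0.488 by reads and 0.00988 by positions, puts the second close to counting error. Permutation tests used scipy 1.17.1 in Python 3.11.15. DESeq2 1.42.0, other scalings, filters, depths, grids and leaving out each library were alternatives.

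Counts were simulated for day 8 against day 0, with changes put only into some features whose mean count was at or above the median. In fits over 30250 genes by reads, the test recovered 17% of the 2-fold and 67% of the 4-fold changes. It recovered 44% and 89% by positions over 20416 genes, and 2% and 60% over 81603 bins. Simulated spread came from the fitted trend by reads, but from the value fitted to each feature by positions and in bins. Recovery by reads is therefore not comparable with recovery by positions. Recovery among features with lower counts was not simulated. Same-numbered libraries of different days did not deviate together (correlations -0.0125 to 0.0173 over 6 pairs of days), so the numbers were not taken as pairs. Named were the 4 genes, bins past the threshold, the 2 densest and 2 sparsest full bins, called members of the lists, and the 3 genes most correlated with Trappc9 outside Peg13 and with Peg13. One of these genes is not reported here. Members, lists and tests were chosen with earlier results of these data known. Ago2, Ptk2 and Airn, and the bins at the low-coordinate end, were named after their values were seen.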

Additional observations from a re-analysis of the deposited data

How the results depend on the processing

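Of 462 recomputed values, 376 kept their direction and side of the threshold, or for counts stayed within 1.5 times, 43 were no longer past the threshold, 9 newly passed it, 20 counts moved and 14 values turned sign; the causes were not tested. For day 8 against day 0, the replicate block left Trappc9 outside Peg13 at -0.39 (edgeR adjusted p = 0.00174) and Peg13 at -1.52 (0.00599) by positions, but ended the call of Trappc9 outside Peg13 by reads (-0.47, adjusted p = 0.0614; by reads on day 4 -0.44, 0.0691), and genes called by reads numbered 127 with it, against 764 without. Paired by number, Het against WT gave an exact permutation p = 0.25, the smallest value possible. With only the 4 libraries of days 0 and 8, Trappc9 outside Peg13 by reads was -0.47 (0.171) and Peg13 by positions -1.50 (0.0619), and 0 genes were called by reads and 433 by positions, against 1027. DESeq2 called 5296 genes by reads and 510 by positions, gave no adjusted p for Peg13 by positions (-1.53), and reads capped at 10 per position gave 1166 calls and 0.20 for Kcnk9. Bins called in Trappc9 numbered 0 by reads and on the shifted grid, and 1 with 50 kb bins.

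Leaving out each day library in turn, genes called numbered 0 to 7655 by reads and 185 to 929 by positions. Log2 changes on day 8 by reads ran from -0.52 to -0.41 in Trappc9 outside Peg13, -1.97 to -0.10 in Peg13 and -0.55 to 0.51 in Kcnk9, and by positions from -0.39 to -0.33 in Trappc9 outside Peg13, -2.04 to -0.58 in Peg13 and 0.0041 to 0.46 in Kcnk9. Against day 2, Peg13 ran from -0.11 to 1.11 by reads and -0.069 to 0.51 by positions. Bins called were 0 to 1, and r of the density ratio -0.485 to 0.163. The log10 difference of Het against WT uses no day library. It was 2.29 to 2.71 when each Het or WT library was left out instead. Trends per day ran from -0.12 to 0.018 (positions) and -0.18 to 0.019 (reads) in Peg13, and from -0.0053 to 0.042 (positions) and -0.032 to 0.053 (reads) in Kcnk9, whose trend by reads was 0.0061 with library totals and 0.0060 with the block.

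Over the day 0 libraries, Peg13, Kcnk9 and Chrac1 rest on 22, 14 and 0 positions. Simulated 2-fold changes were recovered in 2% of the bins that carried them. Parental copies, strands and numbers of reference CpGs were not analysed here.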
